A study of Rattus norvegicus with 8 samples.

Results

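The genes described here encode the proteins of the cytosolic ribosome. They were taken by symbol: every gene whose name begins with Rpl or Rps and a digit, or is an Rplp gene or Rpsa, leaving out the Rps6k kinases and Rps19bp. Of 81 such genes with a probe on the array, 77 had a probe that the scanner software called well above background in the liver channel on 4 or more of the 8 arrays. These were 30 genes of the small subunit and 47 of the large subunit, out of 10004 named genes measured. Where a gene had several probes, the brightest in liver stood for it. All 77 were well above background on all 8 arrays in both colour channels. The other 4 were Rpl27l2, Rps12l4, Rpl3l and Rpl39l1, of which the first 3 reached that level on no array and Rpl39l1 on 1. Genes of the family without a matched probe, such as Rps9, Rpl26 and Rpl37, were not analysed here.

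A ribosome is built from a small subunit, which reads the messenger RNA, and a large subunit, which joins the amino acids. Each carries ribosomal RNA and a set of proteins that is needed in nearly equal numbers. The messenger RNAs of these proteins begin with a run of pyrimidines, the 5′ terminal oligopyrimidine (TOP) tract, through which mTOR signalling sets how strongly they are translated. Liver makes most plasma proteins and holds many ribosomes.

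Liver RNA came from adult male Sprague-Dawley rats of 78 to 86 days. Control dams received corn oil alone. AhR dams received, in corn oil, non-ortho polychlorinated biphenyls with polychlorinated dioxins and furans, which are agonists of the aryl hydrocarbon receptor (AhR), at 1.8 ng of TCDD toxic equivalents per kg per day. Dosing ran from gestation day 0 to postnatal day 20, and the pups of both groups stayed with their own mothers. Each group had 4 arrays, and each array held RNA pooled from 2 rats, so that 8 pups stood behind a group. Whether pools shared litters is not stated in the labels, so p-values measure the spread between pools. The liver RNA carried the dye Cy5, and a reference RNA from 14 rat cell lines carried Cy3 on every array. The value used throughout is the log2 ratio of Cy5 over Cy3, and the dyes were not swapped.

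The median Cy5 signal per array was 159 to 232 units over a background of 71 to 76, and no spot was saturated. All 13 hepatocyte markers were measured. The reference channel also held liver transcripts: for Alb, serum albumin, the mean over 8 arrays was -0.06 (SD 0.33). The ratio is thus not one of liver over liver-free cells. Of the 77 genes, 46 had more than 1 measured probe.

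The promoter sequences are shown because the genes moved together between arrays, as described further on. RefSeq promoters of the GRCr8 assembly were found for 61 of the 77 genes as a single entry. The window from 15 bases before to 15 bases after the annotated start was searched for a run of at least 8 bases that were all C or T. Such a run stood on the coding strand in 41 of 61 (67.2%), against 11.4% of 33469 promoters of all genes. On the other strand it stood in 1 of the 61 (1.64%), against 13.0%. The shares in the small and large subunit were 16 of 23 and 25 of 38. The windows of the 5 genes that varied most between arrays and of the 5 that varied least, among those with a promoter entry, follow 5′ to 3′, with each run of pyrimidines in capitals.
Rpl22l1 (chr2:113683181-113683210, plus strand): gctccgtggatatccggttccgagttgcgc
Rpl39 (chrX:121195882-121195911, minus strand): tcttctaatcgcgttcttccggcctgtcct
Rps27 (chr2:177964592-177964621, minus strand): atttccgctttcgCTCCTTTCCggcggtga
Rpl35a (chr11:81235007-81235036, minus strand): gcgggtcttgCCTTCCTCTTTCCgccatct
Rpl19 (chr10:83519049-83519078, plus strand): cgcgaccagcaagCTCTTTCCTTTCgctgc
Rps23 (chr2:23814502-23814531, plus strand): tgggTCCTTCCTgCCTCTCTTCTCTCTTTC
Rplp2 (chr1:205975906-205975935, plus strand): cctttcgccgccggacgccgccgaggtcgc
Rplp0 (chr12:46718376-46718405, minus strand): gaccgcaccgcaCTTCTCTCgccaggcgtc
Rpl6 (chr12:41011676-41011705, minus strand): tatttttacatcactagatggcgggtgaaa
Rpl4 (chr8:73566462-73566491, plus strand): taagTTCTTCCTTTTCCTgtgggagcagcc
A run was present in 3 of the 5 most variable genes (Rps27, Rpl35a and Rpl19) and in 3 of the 5 least variable (Rps23, Rplp0 and Rpl4).

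The shorter letters CTTTC, searched in the same window on the coding strand, stood in 27 of the 61 members (44.3%) and in 3.59% of all promoters. The letters CTTCCG, whose pyrimidines can overlap the end of a run, were searched on both strands of the whole 300 bases, and 34 members (55.7%) held them against 16.6% of all promoters. TATAAA, the core of the TATA box, was searched from 40 to 21 bases before the start on the coding strand. It stood in 1 member (1.64%) and in 1.19% of all promoters. These matches describe letters in the reference sequence and do not show that a factor binds there.

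Against the reference, most of the family lay slightly below 0. The median ratio was -0.20 over the 30 small subunit genes and -0.17 over the 47 large subunit genes, which is 1.15-fold and 1.13-fold lower in the liver channel, while the median over all kept probes was 0.01. Below 0 were 25 of 30 small and 40 of 47 large subunit genes, together 84.4%, against 48.4% of all kept probes. With each array centred on its median in place of the intensity-dependent loess fit, the family lay above 0, at 0.15 and 0.16, with all probes at 0.11. The direction of this offset from the reference therefore depends on how dye bias across intensity was removed. In such bulk RNA, fewer cells rich in a transcript and less of it per cell cannot be told apart. Signals of different probes are not comparable in level, and the ratios of single genes are also open to dye bias.

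The subunits were compared on each array. The large subunit median exceeded the small subunit median on 6 of 8 arrays, by 0.07, 0.05, 0.04 and 0.01 in control 1 to 4 and by 0.04, -0.01, -0.02 and 0.08 in AhR 1 to 4. The mean of this difference was 0.03 and its SD between arrays within groups was 0.03. It was not tested, since the genes were chosen with results known. In the authors' deposited value table the difference of the medians over genes was -0.003, against 0.02 here.

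**Figure D1:**
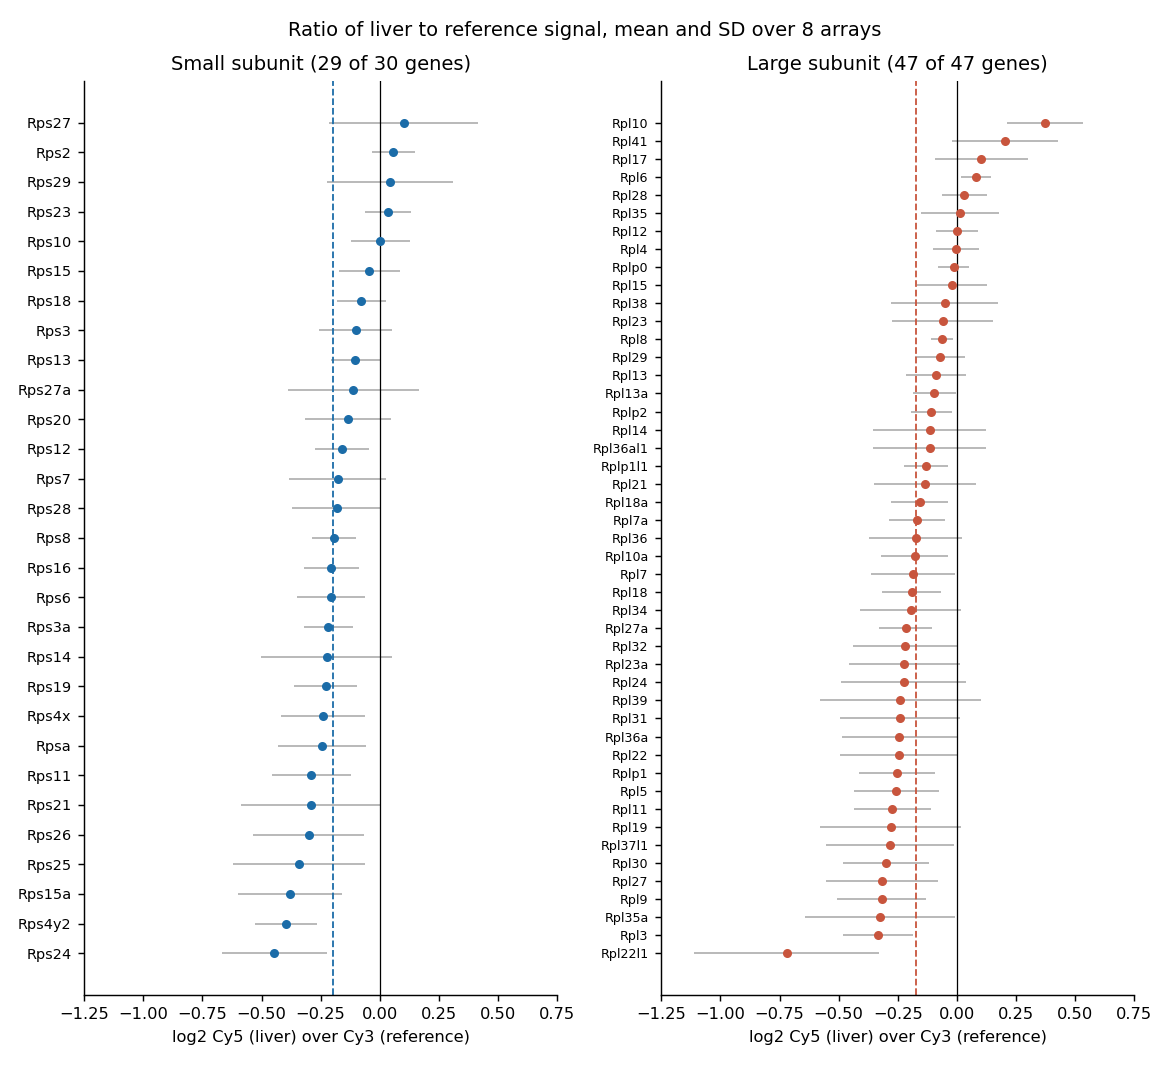
Mean log2 ratio of liver (Cy5) over reference (Cy3) for 76 of the 77 ribosomal protein genes, small subunit on the left and large subunit on the right; bars are the SD over 8 arrays and the dashed line is the median of the whole subunit. Most points lie left of 0, Rpl22l1 is lowest at -0.72 and Rpl10 is highest at 0.37.

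In the small subunit the highest ratios belonged to Rps27 at 0.10, Rps2 at 0.06, Rps29 at 0.04 and Rps23 at 0.04. Each is the value of the brightest probe: the second probe of Rps27 gave -0.10, the other 2 of Rps23 gave -0.26 and -0.29, and 1 of the 4 of Rps2 gave -0.14. Rps2 and Rps23 lie near the decoding centre, where codon and transfer RNA are matched. Among the lowest were Rps24 at -0.45, Rps4y2 at -0.40 and Rps15a at -0.38, whose second probe gave -0.18. RPS24 is, with RPS19, among the genes mutated in the human red cell disorder Diamond-Blackfan anaemia, and Rps19 stood at -0.23. Rps24 was below 0 on every array, at -0.49, -0.25, -0.69 and -0.27 in control and at -0.85, -0.42, -0.27 and -0.33 in AhR. The 2 groups of Rps24 overlapped, and AhR 1 was the lowest array.

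Several small subunit proteins are known for roles besides decoding. Rps3, at the entry channel for messenger RNA, had a mean ratio of -0.10. Rps6, the substrate of S6 kinase downstream of mTOR, stood at -0.21. Rpsa, first known as a laminin receptor precursor, stood at -0.24. Rps27a, made as a fusion with ubiquitin, stood at -0.11, and its values ran from -0.62 in AhR 1 to 0.23 in control 2. The copies Rps4x and Rps4y2 stood at -0.24 and -0.40. For Rps4y2 the array held a second probe at -0.33, whose difference between groups had the opposite sign, as given further on.

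In the large subunit Rpl10 had the highest ratio. This protein joins late in assembly, near the catalytic centre. Its values were 0.22, 0.19, 0.32 and 0.60 in control and 0.26, 0.41, 0.60 and 0.39 in AhR. Rpl10 was thus above 0 on all 8 arrays and the groups overlapped, but its other probe had a mean of -0.06. Rpl41, the smallest ribosomal protein, followed at 0.20, Rpl17 at 0.10 and Rpl6 at 0.08. The second probe of Rpl17 gave -0.20 and that of Rpl6 0.04.

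Rpl22l1 had the lowest ratio, at -0.72. It is a paralog of Rpl22, an RNA-binding protein of the large subunit, and the pair can stand in for each other in the ribosome. Its values were -0.08, -0.42, -1.19 and -0.88 in control and -1.27, -0.65, -0.69 and -0.58 in AhR. The control arrays alone spanned most of that range. A second probe of Rpl22l1 gave a mean of -0.17, but it was dim, with a mean Cy5 signal of 269 units against 7397. Rpl22 stood at -0.25, with -0.02, 0.16, -0.27 and -0.39 in control and -0.68, -0.31, -0.27 and -0.18 in AhR. On control 3 and AhR 1 Rpl22l1 reached its lowest values, and on AhR 1 Rpl22 did too.

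After Rpl22l1 the lowest large subunit genes were Rpl3 at -0.33, Rpl35a at -0.32 and Rpl9 at -0.32. Rpl3 lies next to the catalytic centre. Rpl5 and Rpl11, which with 5S ribosomal RNA form a particle that can bind Mdm2, stood at -0.26 and -0.27. The acidic stalk, which recruits translation factors, is built on Rplp0 with Rplp1 and Rplp2, and these stood at -0.01, -0.25 and -0.11. Rpl13a, known for a role outside the ribosome in interferon response, stood at -0.09, and Rpl38, known for mouse skeletal patterning, at -0.05.

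Within the groups the family varied about as much as all kept probes, but less than other probes of like brightness. The median SD within groups was 0.18 over the 77 genes and 0.17 over all kept probes, and 43 of 77 exceeded the latter. Over 765 other bright probes, described below, it was 0.21, and 527 of them exceeded the median of all kept probes. The most variable were Rpl22l1 at 0.41, Rpl39 at 0.34, Rps27 and Rpl35a at 0.33 and Rpl19 at 0.30. The second probe of Rpl19 had an SD of 0.14, while the further probes of the other genes named had 0.27 to 0.37. The steadiest were Rpl4 and Rpl8 at 0.05, Rpl6 at 0.06, Rplp0 at 0.07 and Rplp2 at 0.08. The second probe of Rpl8 had 0.10, that of Rpl6 0.16 and that of Rplp0 0.06, while Rpl4 and Rplp2 had 1 probe each. Rpl4 and Rpl39 both line the exit tunnel for the growing chain, and they lay at opposite ends of this order.

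The genes deviated together on single arrays. AhR 1 was the lowest of the 8 arrays for 50 of 77 genes (64.9%), against 15.1% of all kept probes and 24.3% of 765 other probes as bright as the family. Those bright probes had a mean Cy5 signal at or above the lower quartile of the 77 genes. Control 2 was the highest array for 37 of 77 (48.1%), against 13.2% of all kept probes and 21.8% of the bright ones. Counted over all 136 measured probes of the family, AhR 1 was lowest for 93 (68.4%) and control 2 highest for 60 (44.1%). These counts describe 2 arrays, not a treatment, and probes of 1 array are not independent.

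The median deviation of the 77 genes from their own means was -0.24 on AhR 1, 1.18-fold below, and 0.16 on control 2, 1.11-fold above. On the other arrays it was 0.01, -0.05 and 0.01 in control 1, 3 and 4 and -0.03, 0.08 and 0.06 in AhR 2 to 4. On AhR 1, 29 of 30 small and 40 of 47 large subunit genes lay below their means. The median over all kept probes stayed within -0.01 and 0.01 on every array.

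**Figure D2:**
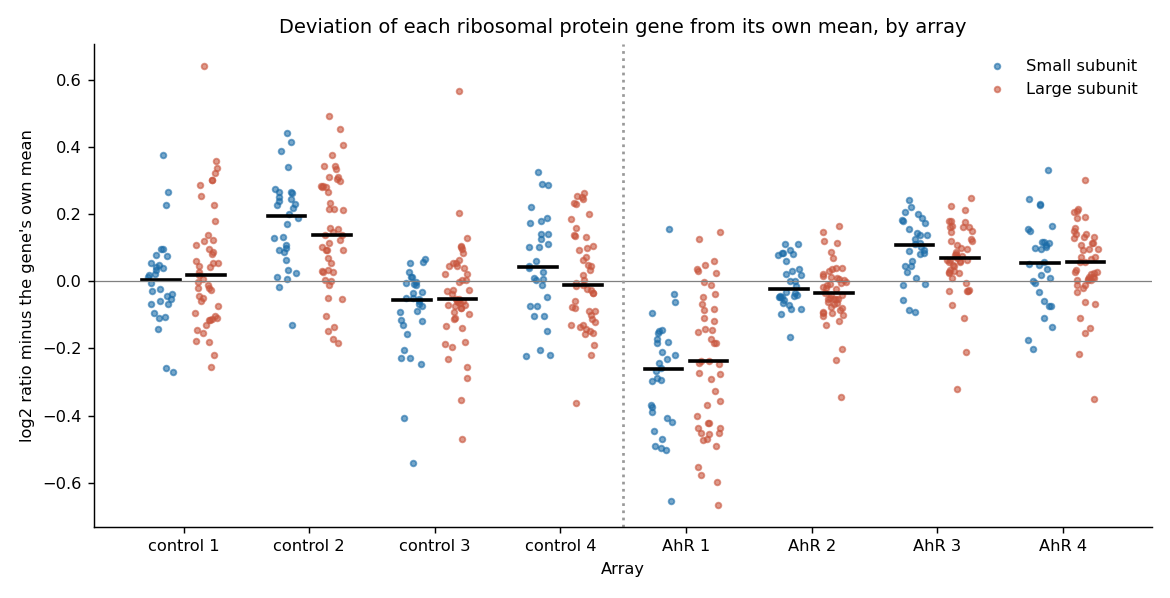
Log2 ratio of each ribosomal protein gene minus its own mean over 8 arrays, by array, with small subunit genes in blue, large subunit genes in red and the median of each as a black bar. On AhR 1 the medians lie at -0.26 and -0.24, and on control 2 at 0.19 and 0.14.

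The deviation on AhR 1 was in the liver channel. Taken against the median of each array without any dye correction, the family's Cy5 signal on AhR 1 was 0.31 below its mean and its Cy3 signal 0.05 above. On control 2 the same Cy5 signal was 0.09 above its mean, as it was on control 1 and 4, and AhR 4 was higher, at 0.13. The deviation on AhR 1 was -0.23 with Agilent's processed signals, -0.16 with Cy5 alone, -0.20 in the authors' deposited value table and -0.25 with median centring. That of control 2 was 0.16, 0.09 and 0.13 in the first 3, but -0.03 with median centring, under which AhR 2 and control 4 were highest, at 0.27 and 0.23.

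The genes with the largest deviation on AhR 1 were Rpl39 at -0.67, Rps25 at -0.65, Rpl37l1 at -0.60 and Rpl35a at -0.58. They were singled out after their values were seen. Rps25, used by viral internal ribosome entry sites, had -0.32, -0.08, -0.35 and -0.35 in control and -0.99, -0.26, -0.20 and -0.18 in AhR. Rpl39 had 0.10, 0.10, -0.43 and -0.22 in control and -0.90, -0.34, -0.27 and 0.06 in AhR. For both genes AhR 1 lay far below the 3 other AhR arrays, which fell among the control values.

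The 8 genes above their means on AhR 1 were Rps2, Rpl3, Rpl4, Rpl7a, Rpl8, Rpl12, Rpl19 and Rplp0, each by its brightest probe. The second probe of Rpl19 was lowest on AhR 1, at -0.35 against a mean of -0.09. That of Rplp0 was also lowest there, at -0.16 against -0.09. The other probes of Rps2, Rpl8 and Rpl12 lay above their means on AhR 1 too. Rps2 moved opposite to the family, with 0.15, -0.07, 0.02 and 0.06 in control and 0.21, 0.06, -0.03 and 0.05 in AhR. Its highest array was AhR 1 and its lowest control 2. Rpl3 was also highest on AhR 1, at -0.19, with -0.59, -0.47, -0.23 and -0.20 in control and -0.42, -0.23 and -0.35 on the other AhR arrays.

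**Figure D3:**
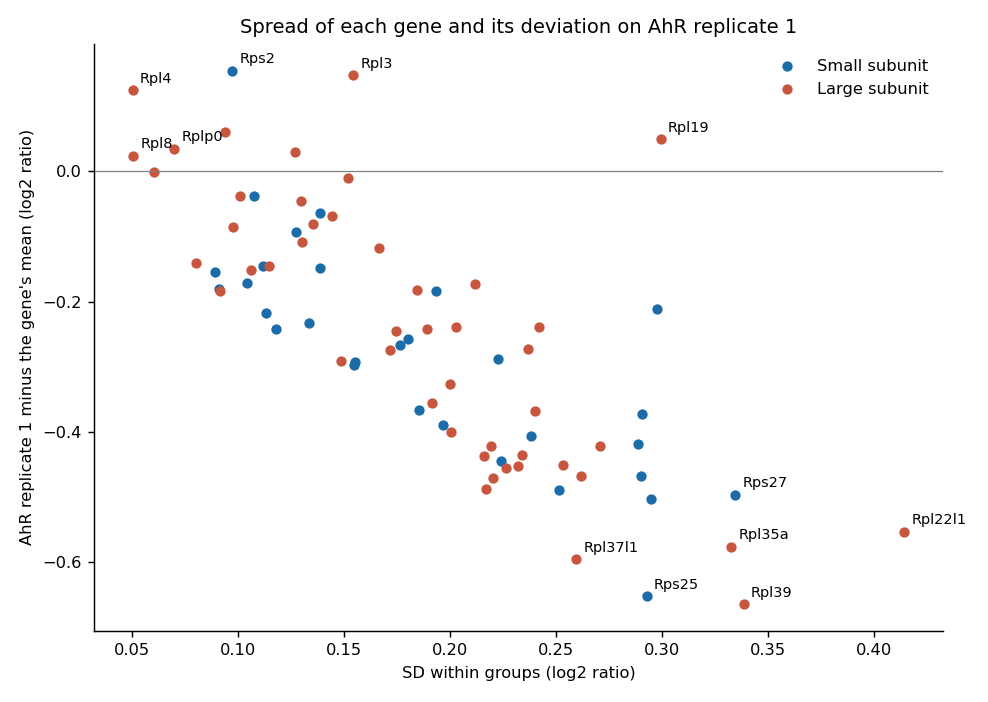
Each ribosomal protein gene by its SD within groups (horizontal, log2 ratio) and its deviation on AhR replicate 1 (vertical, log2 ratio), with small subunit genes in blue and large subunit genes in red. The deviation on AhR 1 is one of the values in the SD. Rpl39, at an SD of 0.34, lies at -0.67, while Rpl4 and Rpl8, at 0.05, lie above 0. Rpl19, at 0.30, departs from the rest, but its second probe, not shown, was lowest on AhR 1.

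As a description over 8 arrays, deviations from the group means were correlated between members. The mean r between pairs of genes was 0.48 within the small subunit, 0.27 within the large subunit and 0.37 between the subunits. It was 0.002 over all kept probes and 0.01 over the bright ones. All pairs share the arrays, and the large values on AhR 1 and control 2 weigh in every r. Each gene's r with the mean of the other members had a median of 0.74, exceeded 0.8 for 33 genes and was highest for Rps28 at 0.99. For 9 genes it was below 0, from -0.83 for Rps2 and -0.53 for Rpl4 to -0.04 for Rpl15. Rpl15 was represented by a dim probe, with a mean Cy5 signal of 210 units.

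Between the AhR group and control, no ribosomal protein gene passed the test. By limma with Benjamini-Hochberg adjustment, 0 of 77 had an adjusted p under 0.05, as did 0 of all 17859 probes (0%). At an unadjusted p under 0.05 there were also 0 of 77, against 1.61% of all probes, 0.767% lower and 0.846% higher in AhR. With 4 pools a group, the 95% interval of the difference lay within a fold of 1.5 either way for 73 of 77 genes and within a fold of 2 for all 77. The other 4 did not exclude a change of 1.5-fold.

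The differences themselves were small and leaned one way. Of the 77, 58 were lower in AhR, 24 of 30 in the small and 34 of 47 in the large subunit, against 52.3% of all kept probes. The median difference was -0.08 over the family, a fold of 1.06, with -0.07 for the small and -0.08 for the large subunit, and -0.01 over all probes. Without AhR 1 the family's median was -0.01, with 41 of 77 lower. Without control 2 it was -0.03, with 53 lower. Without both arrays it was 0.03, with 24 of 77 lower. This pair was chosen after the values were seen, as the family's lowest AhR and highest control array, so leaving it out raises the difference by construction.

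The difference was also taken within each row of the slide. In slide row 1, with control 1 and 3 and AhR 2 and 4, the median difference was 0.02 and 33 of 77 genes were lower. In row 2, with control 2 and 4 and AhR 1 and 3, it was -0.16 and 66 were lower. All kept probes were lower in 51.0% and 50.7% of cases in these rows.

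**Figure D4:**
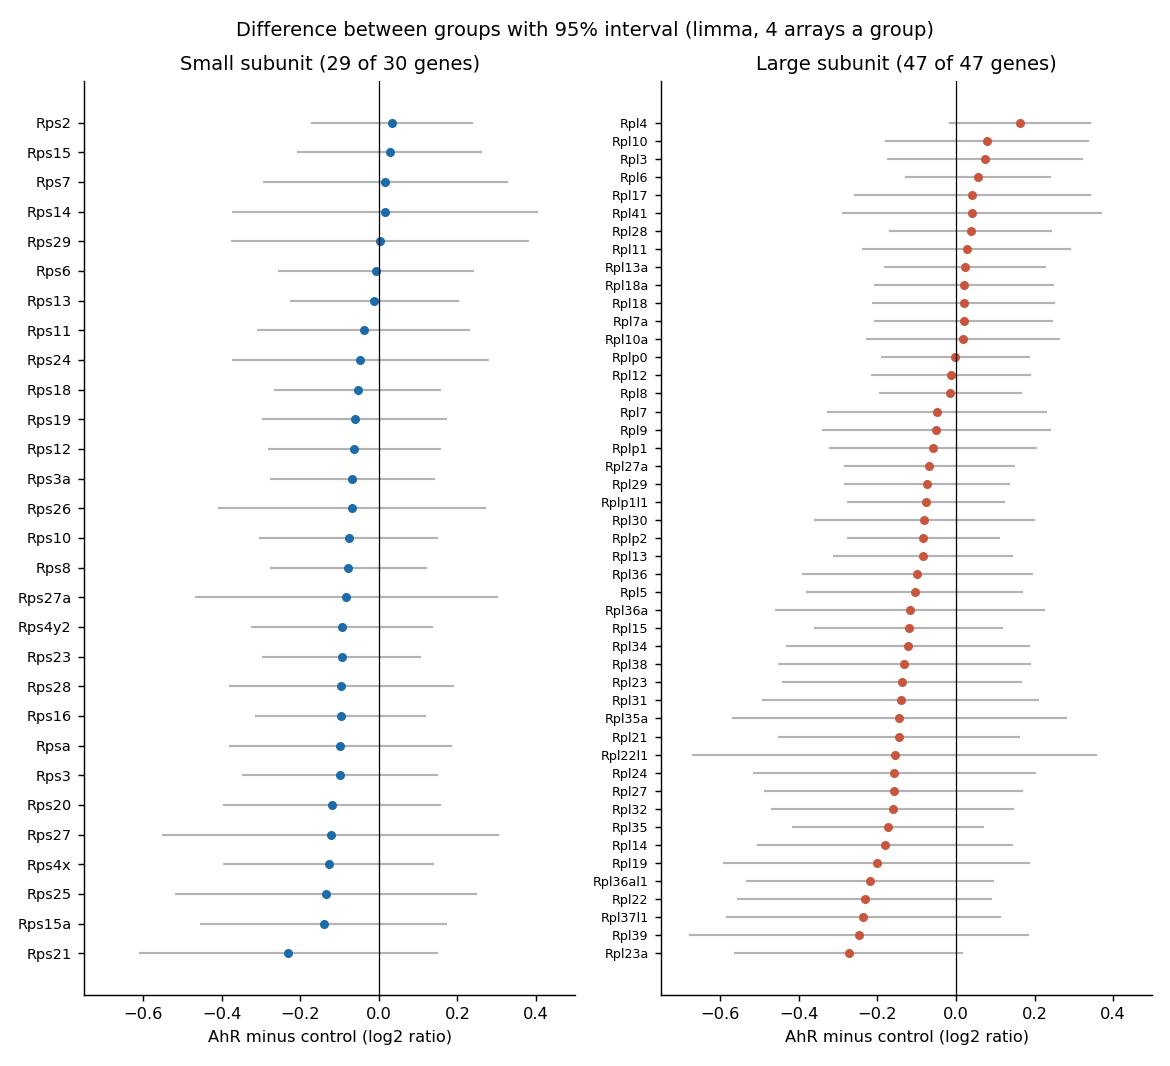
Difference of AhR minus control in log2 ratio for 76 of the 77 genes, with the 95% interval of limma as a bar, small subunit on the left and large subunit on the right. Every interval shown includes 0; Rpl23a is lowest at -0.27 and Rpl4 highest at 0.16.

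Rpl4 was the only member whose groups did not overlap. It had -0.05, -0.15, -0.11 and -0.03 in control and 0.12, 0.08, 0.08 and 0.02 in AhR, so that every AhR array lay above every control array. The difference was 0.16 (SE 0.08), a fold of 1.12, with a limma p of 0.0738 and an adjusted p of 1.00. The two-sided exact permutation test gave p = 0.0286, the smallest that 4 arrays against 4 allow. Any gene whose groups do not overlap gets this p, so it adds nothing to that observation. One gene of 77 (1.3%) without overlap compares with 1.19% of all probes, made up of 0.627% higher and 0.56% lower in AhR, which is the background of this count. Rpl4 had 1 probe, and over 18 alternatives its difference ran from 0.11 to 0.20 with no adjusted p under 0.913. Without the filter on dim probes its unadjusted p was 0.0189.

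Rpl23a, which lies at the exit of the tunnel where the signal recognition particle docks, had the smallest p. It had 0.14, -0.10, -0.40 and 0.02 in control and -0.55, -0.20, -0.25 and -0.44 in AhR. Control 3 lay among the AhR arrays, and the other 3 control arrays lay above all AhR arrays. The difference was -0.27 (SE 0.13), a fold of 1.21, with a limma p of 0.0625, an adjusted p of 1.00 and an exact permutation p of 0.114. Without control 3 it was -0.38 at an unadjusted p of 0.0102, with an adjusted p of 0.999.

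Among the other lower large subunit genes, Rpl22 differed by -0.23 (SE 0.15) and Rpl35 by -0.17 (SE 0.11). In the small subunit Rps21 differed by -0.23 (SE 0.17), Rps4x by -0.13 (SE 0.12) and Rps23 by -0.09 (SE 0.09). The adjusted p of limma was 1.00 for each of these 5. Rps21 had 0.09, 0.13, -0.52 and -0.39 in control and -0.76, -0.32, -0.34 and -0.19 in AhR. Control 1 and 2 were high, while control 3 and 4 were as low as the AhR arrays.

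The genes with the smallest p among those higher in AhR, after Rpl4, were Rpl10 at 0.08 and Rpl6 at 0.06 in the large subunit. In the small subunit they included Rps2 at 0.03 and Rps15 at 0.03, with limma adjusted p of 1.00 throughout. Of the paralogs, Rpl22l1 differed by -0.16 (SE 0.23) beside Rpl22, and Rpl36al1 by -0.22 (SE 0.14) beside Rpl36a by -0.12 (SE 0.16).

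Probes of the same gene did not always point one way. Of the 46 genes with several measured probes, the sign of the difference was shared by all probes in 35 and differed in 11, namely Rps2, Rps3, Rps4y2, Rps14, Rps15, Rps29, Rpl8, Rpl10, Rpl17, Rpl28 and Rpl36a. For Rps4y2 the difference was -0.09 with the brighter probe and 0.25 with the other, at mean Cy5 signals of 5132 and 934 units. Rpl36a is listed through a probe of 97 units, near background, at 0.12. Its brighter probes were all lower, at -0.21 to -0.12. Mean ratios of probes of a gene spanned a median of 0.09 and exceeded 0.2 for 7 genes, up to 0.55 for Rpl22l1, whose second probe was dim. The RefSeq table lists 883 pseudogenes under the same naming rule, and whether probes also took up their transcripts was not tested.

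Other parts of the translation machinery were taken as lists. Mitochondrial ribosomal proteins, which serve the organelle's own ribosome, were lower in AhR for 46 of 66, with a median of -0.06. At an unadjusted p under 0.05 there was 1 of the 66, Mrpl18, at -0.26 (SE 0.11). The translation factor list took every gene named Eif or Eef with a digit, so it also holds regulators of these factors. Of its genes 23 of 54 were lower, with a median of 0.02. Eif4ebp2, such a regulator and a repressor of cap-dependent initiation under mTOR control, was the one past that p, at -0.36 (SE 0.16). Of the mTOR and S6 kinase list, which shares Eif4ebp2, 6 of 15 were lower, with a median of 0.03. Ribosome assembly factors were lower for 7 of 30 with a median of 0.07, and Rrp9, a part of the U3 particle that processes ribosomal RNA, was higher by 0.32 (SE 0.14) at that p. These counts, 1 of 66, 1 of 54, 1 of 15 and 1 of 30, stand beside 1.61% of all probes at that p. None of these genes passed after limma's adjustment, at an adjusted p of 1.00 each.

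Other genes known to carry TOP tracts were listed too. Of 19 measured, 11 were lower, with a median of -0.01. Fau, whose product is a ribosomal protein made as a fusion and which the naming rule leaves out, differed by 0.04. On AhR 1 Fau had its lowest value, -0.15 against a mean of 0.01. Eef1a1, the most abundant elongation factor, stood at 0.29 on AhR 1 against a mean of 0.27.

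The median deviation on AhR 1 was -0.10 for the mitochondrial ribosome and -0.06 for the other TOP genes. It was 0.04 for translation factors and 0.10 for assembly factors. On control 2 it was 0.07, -0.004, -0.05 and -0.01 in the same order. The mean r with members of the family, as a description over 8 arrays, was 0.16, 0.05, -0.09 and -0.09.

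**Figure D5:**
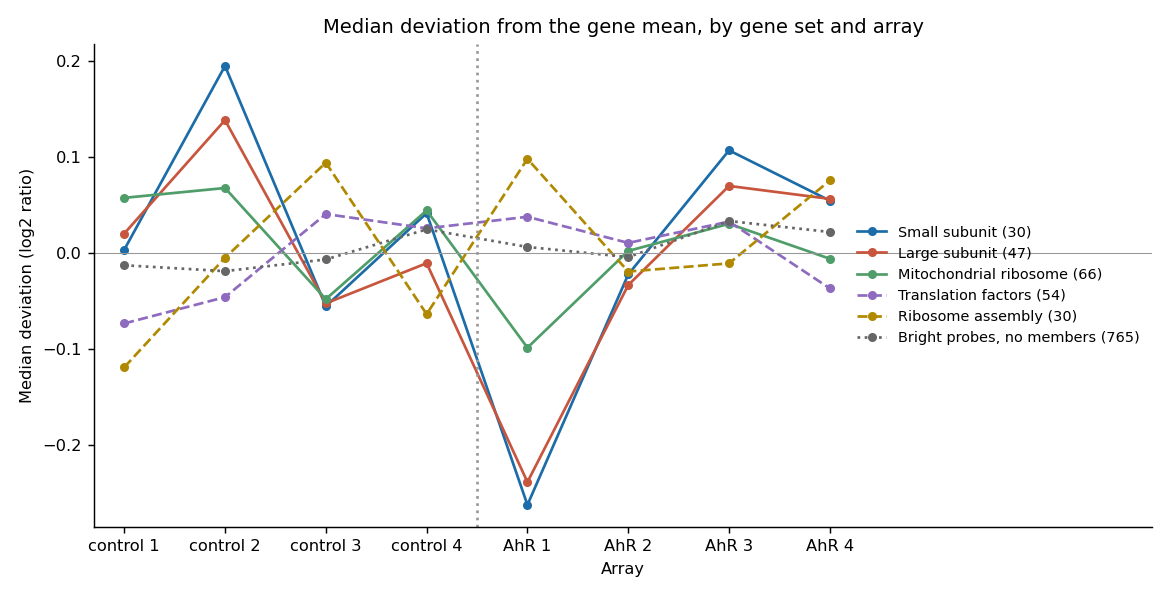
Median deviation from the gene mean (log2 ratio) on each array for small and large subunit genes, mitochondrial ribosomal proteins, translation factors, ribosome assembly factors and 765 other bright probes, with the number of genes or probes in brackets. The cytosolic subunits fall to -0.26 and -0.24 on AhR 1, where the mitochondrial ribosome lies at -0.10 and the bright probes at 0.01.

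Markers of other liver cell types were set beside these arrays. On AhR 1 the 13 hepatocyte markers deviated by 0.15 and on control 2 by -0.11, opposite to the family. Their summed Cy5 signal ran from 1.85e+06 to 1.98e+06 in control and from 1.83e+06 to 2.01e+06 in AhR. Of 8 lymphocyte markers 4 were measured, and Cd2 was above background on no array. These 4 deviated by -0.17 on AhR 1 and 0.21 on control 2, in the same directions as the family. They were lowest on control 1, however, at -0.19, where the family lay at 0.01. The summed signal of all 6 lymphocyte markers with a probe, Cd2 included, was 950 to 1246 in control and 982 to 1221 in AhR. The 4 measured of 6 proliferation markers deviated by -0.47 on AhR 1 and 0.14 on control 2, but by 0.69 on control 3, where the family lay below its mean, and summed to 635 to 1454 in control and 615 to 1029 in AhR. All 4 were lower in AhR, with a median of -0.34, and Bub1 was past an unadjusted p of 0.05 without overlap of the groups, at -0.27 (SE 0.10). Over all kept probes 52.3% were lower, 1.61% were past that p and 1.19% had groups without overlap.

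The 5 measured of 6 erythroid markers deviated by 0.90 on control 2 and 0.05 on AhR 1, and all 5 were lower in AhR, with a median of -0.35 and none at an unadjusted p under 0.05. Their summed signal was 3.42e+05 to 5.15e+05 in control and 2.40e+05 to 4.45e+05 in AhR. The 10 Kupffer cell and macrophage markers deviated by 0.06 on AhR 1 and 0.16 on control 2, with 5.40e+04 to 9.52e+04 in control and 7.70e+04 to 1.10e+05 in AhR. The 7 stellate and matrix markers deviated by 0.16 and -0.26 on these arrays, and the 4 measured of 6 endothelial markers by 0.05 and 0.24. Their sums were 1.47e+04 to 2.01e+04 and 7555 to 14127 in control, and 1.88e+04 to 2.25e+04 and 9736 to 12346 in AhR. The endothelial sum covers all 5 markers with a probe. In AhR, 9 of 10 Kupffer cell and macrophage markers were higher (median 0.15), as were 7 of 7 stellate and matrix markers (median 0.15) and 4 of 4 endothelial markers (median 0.05). Of these, Dcn, a matrix proteoglycan, was past an unadjusted p of 0.05 without overlap, at 0.33 (SE 0.11). Beside these counts, 8513 of all 17859 kept probes were higher in AhR and 52.3% were lower. Past that p were 1.61% of all kept probes, and 1.19% had groups without overlap. Of the hepatocyte markers 8 of 13 were higher and of the lymphocyte markers 3 of 4 lower. No marker passed limma's adjustment, at which 0 of all probes passed. The part of these cell types in the ribosomal protein values was not tested.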

How the data were processed

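Per the file headers, the authors deposited Agilent Feature Extraction 10.7.3.1 output, whose median spot intensity and local background in each channel were used, with the flags for outliers and for signals well above background. A table of log2 values was deposited as well, of unstated exact form; its columns had medians of 0.00569 to 0.0165 and followed the ratios used here with slopes of 1.02 to 1.05, in the direction of Cy5 over Cy3. Background was corrected by normexp (offset 50), arrays were normalized by loess and groups compared by lmFit and eBayes in limma 3.58.1 under R 4.3.3, over 17859 of 30367 probes kept for Cy5 well above background on at least 4 arrays. RefSeq accessions of the array, designed on an older assembly, were matched without versions to RefSeq genes of GRCr8, which named 18004 probes. No 2 arrays were duplicates: their ratios differed by an SD of 0.25 to 0.37 (log2). The number of arrays limits the precision. The test was checked on simulated data. The members and gene lists were chosen with earlier results of these data known. Named genes are those with known roles or paralogs, the 4 highest and 4 lowest ratios and the 3 smallest p in each direction per subunit, the 5 largest spreads and genes without overlap. Some items that this rule names are not reported here.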

Additional observations from a re-analysis of the deposited data

Results flagged for a closer look

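Of 88 groups of 4 arrays examined, over 40 named genes and the subunit medians, 3 held an array that lay far from the other 3, and chance alone gives about 1 in 20. Rpl22l1 was lowest on AhR 1 at -1.27, against -0.69 to -0.58 on the other AhR arrays. Rpl37l1 was lowest on AhR 1 at -0.878, against -0.27 to -0.18. Rplp0, the base of the ribosomal stalk, was lowest on control 4 at -0.144, against 0.01 to 0.04 on the other control arrays, within a range that was narrow beside that of the other members.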

How the results depend on the processing

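The count of probes past an adjusted p of 0.05 was 0 under all 17 alternatives. With median centring the median ratio moved to 0.149 for the small and 0.158 for the large subunit, and 36.5% of all probes were then lower in AhR against 52.3%; over the other alternatives both medians stayed below 0. At an unadjusted p under 0.05, 1 member was higher without a filter on dim probes (Rpl4), and 0 to 2 were lower when each array was left out: Rpl23a without control 3 or without AhR 2, and Rpl14 and Rpl35 without control 4. With each array left out in turn the median difference ran from -0.113 to -0.009 for the family, -0.112 to -0.003 for the small and -0.121 to -0.009 for the large subunit, and the large minus small ratio from 0.01 to 0.04. The medians of the ratio then ran from -0.219 to -0.168 for the small and -0.184 to -0.142 for the large subunit. Leaving out control 2 and AhR 1 together was chosen after the data were seen. The 12 genes named by p stayed above a limma adjusted p of 0.05 in all 216 alternative results, the lowest being 0.913. Their signs were not all kept when single arrays were left out. For example, Rps2 was lower in AhR without AhR 1 or without control 2. Rps15 was lower without control 1, control 3, AhR 3 or AhR 4. The replicate numbers in the labels did not pair the arrays (correlations of deviations from -0.37 to 0.05), and with the replicate block 0 probes passed. The median difference of -0.077 could not change under that block, since each replicate number holds an array of each group. Cy5 alone gives no ratio, and the mean over all probes of a gene was not tested.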
